A study of Homo sapiens with 9 samples.

Results

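The genes described here are 10 non-coding host genes of small nucleolar RNAs (snoRNAs): GAS5, SNHG1, SNHG5, SNHG6, SNHG8, SNHG12, SNHG15, SNHG16, SNHG17 and ZFAS1. They were taken by symbol from a count table of 60708 genes, and each of the 10 symbols matched 1 row. All 10 passed the filter on low counts and were tested with 20812 genes in all. RNA was sequenced from MDA-MB-231 cells, an established human line of triple-negative breast cancer, in 9 libraries made from polyadenylated RNA. Of these, 3 recovery libraries came from cells collected 24 h after treatment with pladienolide B (PdB), 3 PdB libraries from cells at the end of 16 h in 10 nM PdB, and 3 DMSO libraries from cells given the solvent. PdB is a small molecule that binds the SF3B complex of the U2 snRNP and hinders the choice of the intron branch site. The comparisons ask which transcripts differ at the end of treatment and which still differ after recovery. The labels give no time for DMSO, do not say whether libraries came from separate cultures, and name no medium change for recovery, so the p-values measure the spread between these libraries, which may be technical.

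A snoRNA host is transcribed by RNA polymerase II, and the snoRNAs lie in its introns, from which they are trimmed after splicing. C/D box snoRNAs guide ribose methylation and H/ACA snoRNAs guide pseudouridylation, mostly of ribosomal RNA. The spliced host RNAs carry only short open reading frames, and several, GAS5 and SNHG1 among them, are known to be degraded by nonsense-mediated decay (NMD) when they are translated. Many hosts begin with a run of pyrimidines at the cap (a 5′ terminal oligopyrimidine tract), as mRNAs of ribosomal proteins do, which ties their translation, and with it their decay, to growth signals.

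The bases around the annotated start are printed for 6 hosts that behaved differently here, to show the pyrimidine runs near it. Each line gives 20 bases before and 30 bases after the RefSeq start on the transcribed strand (GRCh38.p14), and capitals mark the longest run of C and T that touches the 5 bases before or the 10 bases after the start.
SNHG17: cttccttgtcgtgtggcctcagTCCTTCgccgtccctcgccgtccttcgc
SNHG1: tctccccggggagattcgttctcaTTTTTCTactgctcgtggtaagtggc
ZFAS1: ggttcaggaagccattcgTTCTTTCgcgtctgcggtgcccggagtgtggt
SNHG16: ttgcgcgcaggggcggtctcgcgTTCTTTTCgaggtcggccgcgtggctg
SNHG12: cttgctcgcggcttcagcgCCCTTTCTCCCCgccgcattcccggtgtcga
SNHG8: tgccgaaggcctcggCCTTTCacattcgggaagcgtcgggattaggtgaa
The windows are chr20:38435299-38435348 (minus strand) for SNHG17, chr11:62855856-62855905 (minus strand) for SNHG1, chr20:49278622-49278671 (plus strand) for ZFAS1, chr17:76557744-76557793 (plus strand) for SNHG16, chr1:28581844-28581893 (minus strand) for SNHG12 and chr4:118278742-118278791 (plus strand) for SNHG8. RefSeq entries were found for 8 of the 10 hosts, all but SNHG6 and SNHG15. A run of at least 6 pyrimidines was present in 7 of those 8 hosts, all but GAS5, and in 26.3% of 35116 RefSeq promoters searched in the same way. A minimum of 5 pyrimidines gave the same 7 hosts beside 40.9% of promoters. A minimum of 7 gave 4 hosts beside 17.9% of promoters. The GAS5 window searched, chr1:173869016-173869065 (minus strand), lies outside the span of GAS5 in GENCODE 29. In GENCODE 29, 7 of 29 GAS5 transcripts began with at least 5 pyrimidines, so the exception of GAS5 depends on the start used. The run was 12 bases in SNHG12, 8 bases in SNHG16 and 6 bases in SNHG17, SNHG8 and SNHG5. Counted from 1 at the RefSeq start, it begins at base 3 in SNHG17, base 4 in SNHG16 and base 5 in SNHG1, so these stretches are runs near the start and are not shown to lie at the cap. The run was read on the transcribed strand alone, no other motif was searched in these windows, and the start used in these cells was not measured.

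A set of 5 snoRNAs described in detail here is printed next, since they lie inside the hosts and were counted as genes of their own. In the C/D box RNAs, capitals mark GATGA in the first 20 bases and CTGA in the last 16 bases, the cores of boxes C and D. In the H/ACA RNAs, they mark the first ANANNA (box H) that starts at bases 46 to 91 and ACA in the last 8 bases. Both were searched on the transcribed strand, and the paired boxes do not overlap.
SNORD25: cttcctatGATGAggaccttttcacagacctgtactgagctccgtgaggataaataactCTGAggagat
SNORD26: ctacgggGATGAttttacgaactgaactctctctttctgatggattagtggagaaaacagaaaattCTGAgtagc
SNORD12C: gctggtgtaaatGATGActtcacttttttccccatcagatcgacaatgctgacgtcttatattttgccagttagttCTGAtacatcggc
SNORA71C: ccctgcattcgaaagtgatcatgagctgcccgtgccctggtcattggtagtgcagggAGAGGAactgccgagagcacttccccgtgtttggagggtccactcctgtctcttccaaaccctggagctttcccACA
SNORA61: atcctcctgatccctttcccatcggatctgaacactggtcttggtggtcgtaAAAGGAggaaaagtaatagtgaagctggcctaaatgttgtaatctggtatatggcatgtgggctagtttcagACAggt
SNORD25 (chr11:62855564-62855632, minus strand) and SNORD26 (chr11:62855292-62855366, minus strand) lie in SNHG1, SNORD12C (chr20:49278940-49279028, plus strand) in ZFAS1, SNORA71C (chr20:38429670-38429803, minus strand) in SNHG17 and SNORA61 (chr1:28579764-28579893, minus strand) in SNHG12, all in GENCODE 29 on hg38. Of the 16 C/D box genes inside the hosts, 13 held GATGA and 16 held CTGA in these windows. Of the 11 H/ACA genes, 10 held ANANNA and 9 held ACA. Among 955 GENCODE snoRNA transcripts of both classes, 24.3% held both C/D boxes and 32.1% both H/ACA boxes.

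The libraries held 56389689 to 67047079 counts, and the biological coefficient of variation over all genes was 0.111. Levels are given as CPM, the counts divided by the TMM-scaled library size. Of 7 mesenchymal markers of the line, SPARC averaged at most 1.93 CPM in any group and the other 6 at least 125 CPM. VIM averaged 1094 ± 13.5 CPM in recovery, 2162 ± 135 CPM in PdB and 2871 ± 51.8 CPM in DMSO libraries (SD, n = 3 each). Of 7 luminal markers, ESR1 had 0 counts in every library and PGR, FOXA1 and CDH1 averaged at most 1.29 CPM in any group, whereas the keratins KRT8 and KRT18 averaged at least 325 CPM. GATA3, another of these, averaged 22.5 ± 1.1 CPM in recovery, 45.9 ± 1.4 CPM in PdB and 13.5 ± 0.92 CPM in DMSO libraries, and the part of this shift in the results of the hosts was not tested. None of 6 leukocyte and endothelial markers averaged more than 1.01 CPM in any group. Among the 10 hosts, replicate 2 was the highest library of its group in 10 hosts for recovery, in 10 for PdB and in 8 for DMSO, while replicate 3 was the lowest in 9 hosts for recovery and in 8 for PdB. Libraries of 1 group thus moved together across hosts, and the part of this shift in any result was not tested. A bulk library cannot tell more RNA per cell from more cells that hold it.

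At the end of PdB treatment most hosts were higher than in DMSO. Of the 10, 8 rose and 2 fell in edgeR's quasi-likelihood test (Benjamini-Hochberg adjusted p under 0.05). Over all genes tested, 32.0% rose and 38.2% fell, 70.1% in all. The median log2 change of the hosts was 1.01, with a range of -0.98 to 3.13, beside a median of -0.11 over all genes. A change of at least 2-fold was reached by 5 of the hosts, beside 39.7% of all genes that were both called and changed this much. PdB and DMSO libraries did not overlap for any of the 10 hosts, as for 72.5% of all genes.

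After 24 h of recovery the hosts were still high. Against DMSO, 9 of 10 rose and 0 fell (also 0 at an unadjusted p under 0.05 and in DESeq2), while 30.7% of all genes rose and 30.5% fell, 61.2% in all. SNHG8 did not pass the test. The median log2 change was 1.04 for the hosts, with a range of -0.15 to 3.68, and 0.03 for all genes. At least 2-fold changes were called in 5 hosts, beside 25.4% of all genes. Recovery and DMSO libraries did not overlap for all 10 hosts, as for 70.4% of all genes.

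Between recovery and the end of treatment the hosts parted ways. Against PdB, 5 rose, 3 fell and 2 did not pass the test, beside 34.6% of all genes that rose and 31.5% that fell, 66.1% in all. Libraries of these groups did not overlap for 7 of the 10 hosts, as for 70.5% of all genes, and 2 hosts changed at least 2-fold, beside 32.9% of all genes. This comparison and that of PdB against DMSO move with the scaling. With library totals in place of TMM, the median of all genes was 0.33 instead of 0.062, and 8862 genes were called higher and 4876 lower, beside 7204 higher and 6563 lower with TMM. For PdB against DMSO that median was -0.31 with library totals and 0.039 with upper-quartile factors.

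**Figure D1:**
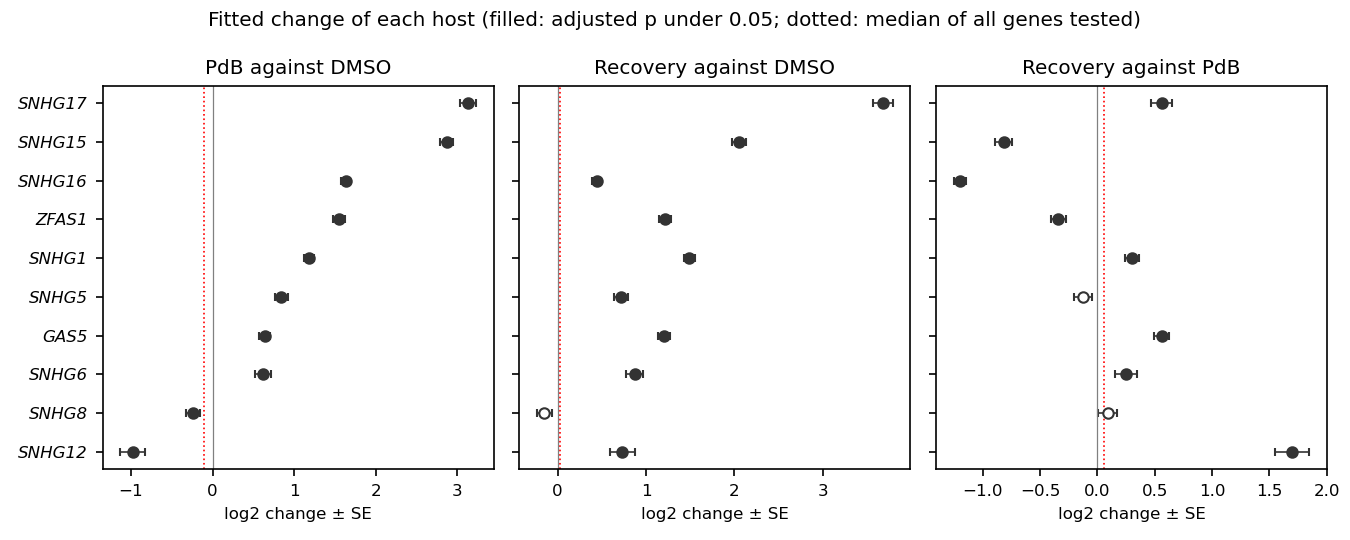
Fitted log2 change (x axis) of each host (rows) in the 3 comparisons, with SE bars derived from the edgeR test. Filled points have an adjusted p under 0.05 and the dotted line is the median of all genes tested. SNHG17 and SNHG15 lie furthest right against DMSO, and SNHG12 is on the left in PdB against DMSO and on the right after recovery.

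The 3 comparisons share their libraries, so each host's own values are given side by side, first for the hosts of C/D box snoRNAs. GAS5 (growth arrest specific 5, chr1:173863900-173868882, minus strand) accumulates in arrested cells and can act as a decoy for the glucocorticoid receptor. It had 169, 172 and 149.7 CPM in recovery, 114, 116 and 103 CPM in PdB and 68.8, 76.9 and 67.6 CPM in DMSO libraries. The groups formed 3 separate steps with recovery highest. On the log2 scale the change was 1.20 ± 0.068 (SE) for recovery against DMSO (adjusted p = 2.8e-11), 0.64 ± 0.067 for PdB against DMSO (adjusted p = 9.1e-08) and 0.56 ± 0.067 for recovery against PdB (adjusted p = 5.4e-07). GAS5 thus rose further between the end of treatment and recovery.

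SNHG1 (chr11:62851988-62855914, minus strand), the host of SNORD22 and SNORD25 to SNORD31, held 261, 263 and 239 CPM in recovery, 213, 219 and 187 CPM in PdB and 90.2, 97.0 and 85.3 CPM in DMSO libraries. Its 3 groups did not overlap either, and the larger step lay between PdB and DMSO. Its log2 change was 1.18 ± 0.064 for PdB against DMSO (adjusted p = 7.5e-12), 1.49 ± 0.065 for recovery against DMSO (adjusted p = 1.1e-12) and 0.30 ± 0.063 for recovery against PdB (adjusted p = 0.00036). SNHG6, the host of SNORD87, followed the same order, with 41.1, 44.0 and 39.1 CPM in recovery, 33.1, 39.3 and 31.9 CPM in PdB and 19.8, 25.1 and 23.0 CPM in DMSO libraries. Here a PdB library (39.3 CPM) reached above the lowest recovery library. SNHG6 rose by 0.62 ± 0.094 in PdB (adjusted p = 1.2e-05) and by 0.87 ± 0.094 in recovery (adjusted p = 2.1e-07), both against DMSO on the log2 scale. The further difference of 0.25 ± 0.093 between recovery and PdB had an adjusted p of 0.024, and that call was lost without PdB replicate 1 (0.077), without PdB replicate 3 (0.08) or without recovery replicate 2 (0.098).

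SNHG5 (chr6:85660950-85678748, minus strand), the host of SNORD50A and SNORD50B, had 81.7, 85.7 and 74.2 CPM in recovery, 83.6, 95.5 and 84.6 CPM in PdB and 42.5, 51.5 and 52.9 CPM in DMSO libraries. Recovery and PdB libraries overlapped, and both lay above every DMSO library. SNHG5 rose by 0.84 ± 0.080 in PdB (adjusted p = 2.4e-08) and by 0.72 ± 0.080 in recovery (adjusted p = 3.2e-07), both against DMSO on the log2 scale. Between recovery and PdB it was -0.13 ± 0.079 (adjusted p = 0.17), and 0.14 with library totals (adjusted p = 0.12), so no direction can be given.

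SNHG16 (chr17:76557766-76565348, plus strand), which carries the SNORD1 group, peaked in PdB. It held 262, 272 and 248 CPM in recovery, 619, 629 and 544 CPM in PdB and 188, 197 and 193 CPM in DMSO libraries. PdB libraries stood far above both other groups, and recovery libraries came back close to DMSO without meeting it. The log2 change was 1.63 ± 0.056 for PdB against DMSO (adjusted p = 1.4e-14), 0.44 ± 0.055 for recovery against DMSO (adjusted p = 1.6e-06) and -1.20 ± 0.056 for recovery against PdB (adjusted p = 1.2e-12). No other host fell as far between PdB and recovery.

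ZFAS1 (chr20:49278178-49295738, plus strand), which starts beside the start of ZNFX1 and carries the SNORD12 group, had 83.3, 89.1 and 80.2 CPM in recovery, 106, 113 and 102 CPM in PdB and 32.9, 38.5 and 37.8 CPM in DMSO libraries. All 3 groups were apart, with PdB highest. ZFAS1 rose by 1.55 ± 0.068 in PdB (adjusted p = 3.3e-13) and by 1.21 ± 0.067 in recovery (adjusted p = 2.5e-11), both against DMSO on the log2 scale. The log2 change of recovery against PdB was -0.34 ± 0.066 (adjusted p = 0.00014), but -0.08 with library totals (adjusted p = 0.3).

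Among the hosts of H/ACA snoRNAs, SNHG17 (chr20:38420588-38435353, minus strand), which carries the SNORA71 group, had the largest change of the 10. It held 711, 738 and 662 CPM in recovery, 504, 529 and 402 CPM in PdB and 53.5, 63.9 and 46.9 CPM in DMSO libraries. Every treated library lay far above every DMSO library, and recovery lay above PdB. The fitted change against DMSO was 12.9-fold in recovery (log2 3.68 ± 0.11, adjusted p = 1e-14) and 8.74-fold in PdB (log2 3.13 ± 0.10, adjusted p = 8.2e-15). From PdB to recovery it rose further, by 0.56 ± 0.095 on the log2 scale (adjusted p = 4.3e-05). Of all genes tested, 1.8% had a larger rise than SNHG17 in recovery against DMSO and 3.53% in PdB against DMSO.

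SNHG15 (chr7:44983023-44986961, minus strand), the host of SNORA9, had 98.6, 104 and 92.4 CPM in recovery, 184, 186 and 151 CPM in PdB and 22.6, 26.2 and 22.6 CPM in DMSO libraries. It differed from SNHG17 in its later course, since recovery lay between PdB and DMSO with no overlap on either side. SNHG15 rose by 2.87 ± 0.083 in PdB (adjusted p = 1.5e-15) and by 2.05 ± 0.082 in recovery (adjusted p = 3.5e-13), both against DMSO on the log2 scale. It fell by 0.82 ± 0.077 in recovery against PdB (adjusted p = 2.2e-08; log2 change -0.82). SNHG8 (chr4:118278709-118279823, plus strand), the host of SNORA24, changed least, with 19.6, 21.4 and 20.2 CPM in recovery, 17.5, 20.4 and 19.7 CPM in PdB and 21.7, 22.4 and 23.8 CPM in DMSO libraries. DMSO libraries lay just above the rest. The log2 change was -0.24 ± 0.084 for PdB against DMSO (adjusted p = 0.018), -0.15 ± 0.084 for recovery against DMSO (adjusted p = 0.13) and 0.09 ± 0.084 for recovery against PdB (adjusted p = 0.38). The fall in PdB lost its call without PdB replicate 1 (adjusted p = 0.084), without DMSO replicate 3 (0.061), in DESeq2 (0.18) and with upper-quartile factors, where the log2 change was -0.09 (adjusted p = 0.37).

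SNHG12 (chr1:28578538-28583132, minus strand) carries both classes, the H/ACA RNAs SNORA16A, SNORA44 and SNORA61 and the C/D RNA SNORD99. It had 28.4, 29.3 and 26.8 CPM in recovery, 8.27, 11.2 and 6.42 CPM in PdB and 17.2, 19.0 and 14.9 CPM in DMSO libraries. This host alone was lowest in PdB and highest in recovery, with no overlap between any 2 groups. The log2 change was -0.98 ± 0.15 for PdB against DMSO (adjusted p = 8.6e-06), 0.73 ± 0.14 for recovery against DMSO (adjusted p = 0.00017) and 1.70 ± 0.15 for recovery against PdB (adjusted p = 6.3e-09). Its coefficient of variation among PdB libraries, 28.2%, was the widest of the 10 hosts in any group.

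**Figure D2:**
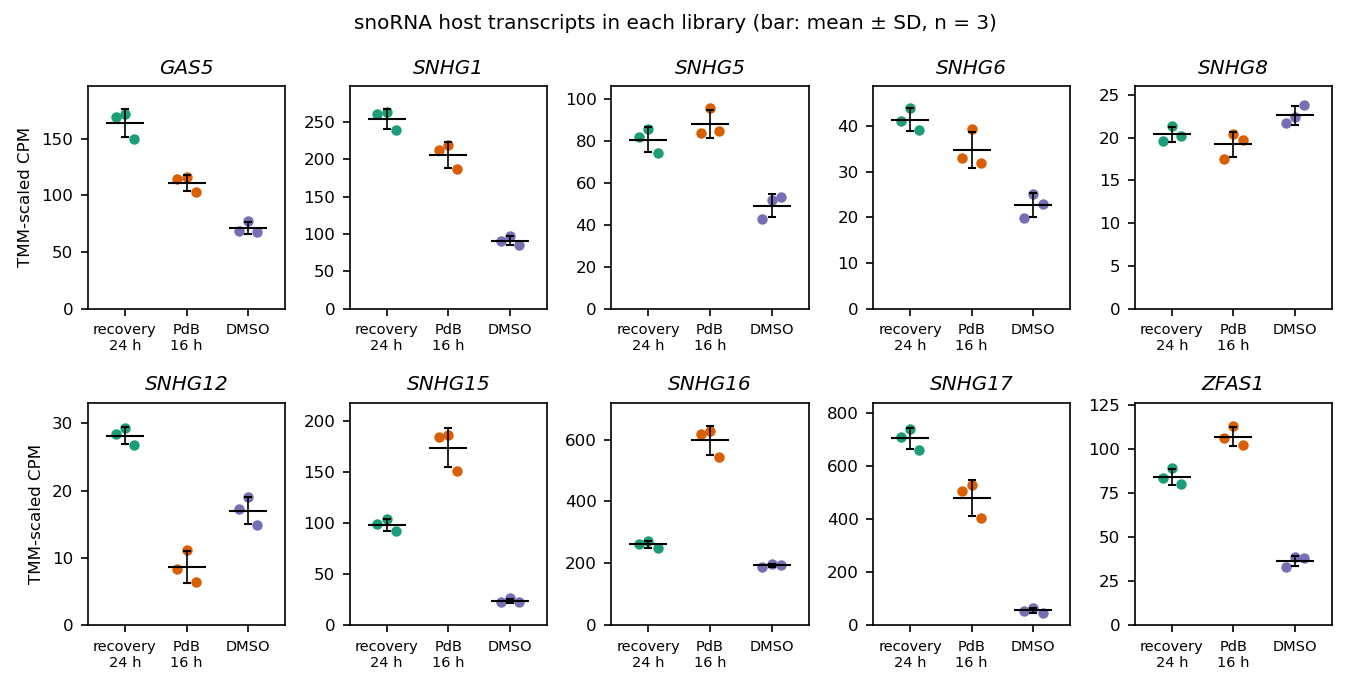
TMM-scaled CPM (y axis, from 0, own scale per gene) of each host in the 3 recovery, 3 PdB and 3 DMSO libraries, with bars for the mean ± SD. GAS5, SNHG1, SNHG6 and SNHG17 step down from recovery to PdB to DMSO, SNHG15, SNHG16 and ZFAS1 peak in PdB, and SNHG12 is lowest in PdB at 6.42 to 11.2 CPM.

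Set together, the hosts followed several courses. In 4 hosts (GAS5, SNHG1, SNHG6 and SNHG17) recovery lay further from DMSO than PdB did, and in 3 (SNHG15, SNHG16 and ZFAS1) it had come part of the way back. SNHG5 stayed high without a called difference between recovery and PdB. SNHG12 turned from below DMSO to above it. SNHG8 was called lower in PdB against DMSO and gave no call in recovery against DMSO or against PdB. No host returned to a level with no call against DMSO after a called rise. Together the 10 hosts took 0.188% ± 0.0091 of all counts in recovery, 0.164% ± 0.012 in PdB and 0.0598% ± 0.0029 in DMSO libraries (SD, n = 3 each). SNHG17 gave 40.6% ± 0.058 of these host counts in recovery, 26.1% ± 1.3 in PdB and 9.39% ± 1.0 in DMSO, whereas SNHG16 gave less in recovery than in PdB, where its share was 32.8% ± 0.66, or in DMSO, where it was 33.2% ± 1.0.

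Levels of different hosts were compared as CPM per kilobase of merged exons in GENCODE 29. In recovery, SNHG17 led with 168 ± 9.2 CPM per kb, above SNHG1 at 67.7 ± 3.5, SNHG16 at 48.6 ± 2.3 and GAS5 at 45.1 ± 3.4 CPM per kb, and the libraries of SNHG16 and GAS5 overlapped. In PdB, SNHG17 at 114 ± 16.1 and SNHG16 at 111 ± 8.6 CPM per kb overlapped and both lay above SNHG1 at 54.9 ± 4.5 CPM per kb. In DMSO, SNHG16 led with 35.9 ± 0.88 CPM per kb, ahead of SNHG8 at 24.5 ± 1.1 and SNHG1 at 24.2 ± 1.6 CPM per kb, which overlapped. SNHG17 was only the eighth of 10 hosts in DMSO, at 13.1 ± 2.1 CPM per kb. SNHG12 was last in every group, with 6.60 ± 0.30 CPM per kb in recovery, 2.03 ± 0.57 in PdB and 3.99 ± 0.48 in DMSO. The other hosts overlapped their neighbours in DMSO from GAS5 at 19.6 ± 1.4 through SNHG6, SNHG5 and ZFAS1 to SNHG17. With the longest annotated transcript as the length, 6 hosts took another rank in recovery, 5 in PdB and 8 in DMSO.

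**Figure D3:**
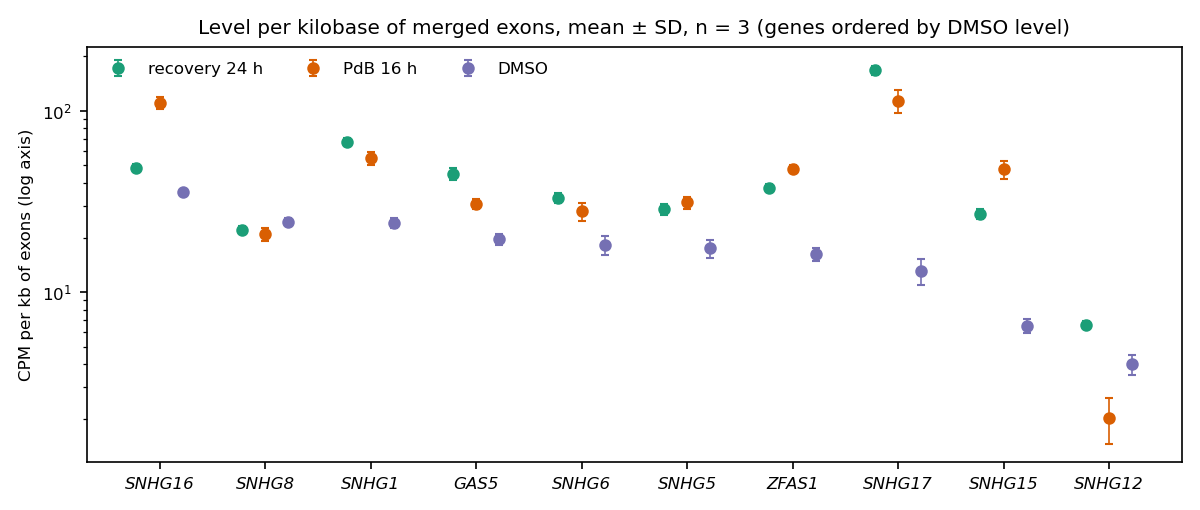
Level of each host as CPM per kilobase of merged exons (log y axis), mean ± SD of 3 recovery, 3 PdB and 3 DMSO libraries, with hosts ordered by their DMSO level. SNHG17 is among the lower hosts in DMSO at 13.1 and leads in recovery at 168, and SNHG12 is at the bottom in all groups.

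Exon counts of these genes do not separate spliced from unspliced RNA. In GENCODE 29 the merged exons of all transcripts cover 96% of the SNHG1 span, 93% of SNHG12, 93% of SNHG15, 83% of SNHG8, 73% of GAS5 and 71% of SNHG16. They cover 28% of SNHG17, 26% of SNHG6, 16% of SNHG5 and 13% of ZFAS1. Transcripts annotated as retained introns number 19 of 29 in GAS5 and 13 of 25 in SNHG1, so reads over most of these genes count for the gene whether or not its introns were removed. Identifiers of only 2 hosts, SNHG6 and SNHG12, had the same version in the count table and in GENCODE 29, so exon models may differ for the other hosts.

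The snoRNA genes inside the hosts were counted as genes of their own. The table held 27 such rows on the host's strand, all tested, for every host but GAS5, whose snoRNAs were not analysed here. Libraries were made from polyadenylated RNA and mature snoRNAs carry no poly(A) tail, so which RNA gave these reads was not tested. Against DMSO, 16 rows rose, 3 fell and 8 did not pass the test in PdB, and in recovery 21 rose, 0 fell (also 0 at an unadjusted p under 0.05, and 0 in DESeq2) and 6 did not pass. In recovery against PdB, 11 rose and 3 fell, and without recovery replicate 2 only 7 were called higher. Over all genes, 34.6% rose and 31.5% fell in recovery against PdB, so the count of rises there was not far from that share. Against DMSO, 32.0% of all genes rose and 38.2% fell in PdB, and 30.7% rose and 30.5% fell in recovery. The log2 change exceeded that of the host in 11 of 27 rows for PdB and in 14 of 27 rows for recovery. A read over a snoRNA may have been counted for both genes: 18 rows lie wholly in annotated host exons, and 2 SNORA16A rows with near-identical coordinates had equal counts in 7 of 9 libraries.

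In SNHG1 the pair nearest the start moved most. SNORD25, whose sequence is given above, starts 282 bp from the outer edge of the host's GENCODE span. Distances here and below use that edge, which can differ from the RefSeq start printed above. SNORD25 had 13.8, 15.4 and 13.1 CPM in recovery, 26.5, 29.8 and 22.7 CPM in PdB and 2.52, 2.14 and 1.53 CPM in DMSO libraries. It rose by 3.67 ± 0.15 in PdB against DMSO on the log2 scale (adjusted p = 1.9e-13), where SNHG1 rose by 1.18, and fell by 0.90 in recovery against PdB (log2 change -0.90 ± 0.13, adjusted p = 7.2e-06), where SNHG1 rose. As a share of the counts of SNHG1, SNORD25 stood at 5.55% ± 0.29 in recovery, 12.7% ± 0.76 in PdB and 2.26% ± 0.50 in DMSO (SD, n = 3 each). SNORD26, at 548 bp, had 5.39, 6.68 and 6.36 CPM in recovery, 13.8, 11.5 and 10.9 CPM in PdB and 1.79, 2.22 and 2.09 CPM in DMSO libraries, a log2 change of 2.57 ± 0.15 for PdB against DMSO (adjusted p = 2.8e-11). Both rows thus peaked in PdB while their host peaked in recovery. The 5 rows further along changed by 0.12 to 1.14 in PdB against DMSO, and of these SNORD30, at 2182 bp, did not pass the test (adjusted p = 0.59).

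The first snoRNA of ZFAS1 showed the largest change of all 27 rows. SNORD12C, at 762 bp from the GENCODE edge of ZFAS1, lies outside every annotated exon of that host. The RefSeq start printed above lies between that edge and SNORD12C, so the distance from that start is shorter. SNORD12C had 264, 142 and 141 counts in recovery, 458, 552 and 394 counts in PdB and 15, 1 and 15 counts in DMSO libraries. PdB libraries were highest and the DMSO libraries held few counts. The log2 change was 5.77 ± 0.41 for PdB against DMSO (adjusted p = 3.5e-10), 4.20 ± 0.41 for recovery against DMSO (adjusted p = 5.8e-08) and -1.57 ± 0.30 for recovery against PdB (adjusted p = 0.00014). The other 2 rows of ZFAS1, SNORD12B and SNORD12, rose by 2.25 ± 0.47 and 1.80 ± 0.38 in PdB against DMSO on the log2 scale (adjusted p = 0.0003 and 0.00039).

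In SNHG17 all 5 rows rose in recovery and in PdB, each against DMSO. SNORA71C, which lies outside the annotated exons of SNHG17, had 88.7, 92.4 and 86.1 CPM in recovery, 33.8, 33.6 and 23.3 CPM in PdB and 3.15, 5.22 and 3.09 CPM in DMSO libraries. Its 3 groups were far apart, with recovery highest. The change was 23.4-fold in recovery against DMSO (log2 4.55 ± 0.17, adjusted p = 1.2e-13), 7.97-fold in PdB against DMSO (log2 2.99 ± 0.16, adjusted p = 7.7e-12) and 2.94-fold in recovery against PdB (log2 1.56 ± 0.14, adjusted p = 1.1e-08). The other 4 rows changed by 0.75 to 2.69 in PdB and by 1.13 to 2.94 in recovery, each against DMSO on the log2 scale and below the change of SNHG17. SNORA71A to SNORA71D are copies with 70.9% to 90.3% identity over 134 bases, compared base by base without gaps. An alignment with gaps could give higher values. Reads may thus be split between the copies, and the value of any single copy is uncertain.

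Rows of the other hosts differed from their host in size or in direction. SNORA61 in SNHG12 had 6.08, 6.44 and 6.48 CPM in recovery, 0.796, 0.764 and 0.845 CPM in PdB and 3.28, 4.80 and 3.26 CPM in DMSO libraries, a log2 change of -2.23 ± 0.21 for PdB against DMSO (adjusted p = 1.9e-08) beside -0.98 for the host. It thus fell in PdB with its host, and further. The other 4 rows of SNHG12 did not pass the test in PdB against DMSO, but SNORA44 and SNORD99 rose in recovery against DMSO, SNORA44 by 1.37 ± 0.31 on the log2 scale (adjusted p = 0.00087 for SNORA44 and 0.013 for SNORD99). The single rows in SNHG6 (SNORD87) and SNHG8 (SNORA24) passed no test. SNORD1C in SNHG16 held 106, 100 and 118 counts in recovery, 6, 18 and 13 counts in PdB and 52, 41 and 26 counts in DMSO libraries, so it was lowest in PdB where SNHG16 was highest. Its log2 change was -1.40 ± 0.45 for PdB against DMSO (adjusted p = 0.011). SNORD1A, further along the same host, rose by 2.03 ± 0.51 on the log2 scale in PdB against DMSO (adjusted p = 0.0017) and by 3.13 ± 0.51 in recovery against DMSO (adjusted p = 3e-05). All 3 SNORD1 rows were called higher in recovery against PdB, while SNHG16 fell. The log2 change was 2.89 ± 0.45 for SNORD1C (adjusted p = 1.5e-05). It was 1.46 ± 0.51 for SNORD1B (adjusted p = 0.017), whose recovery and PdB libraries overlapped, and 1.10 ± 0.45 for SNORD1A (adjusted p = 0.04). SNORD50B in SNHG5 had 44, 92 and 48 counts in recovery, 0, 14 and 0 counts in PdB and 32, 40 and 22 counts in DMSO libraries, while SNHG5 itself rose in PdB. SNORA9 in SNHG15 rose less than its host, by 1.32 ± 0.25 in PdB (adjusted p = 0.00014) and by 1.88 ± 0.25 in recovery (adjusted p = 3.2e-06), both against DMSO on the log2 scale.

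**Figure D4:**
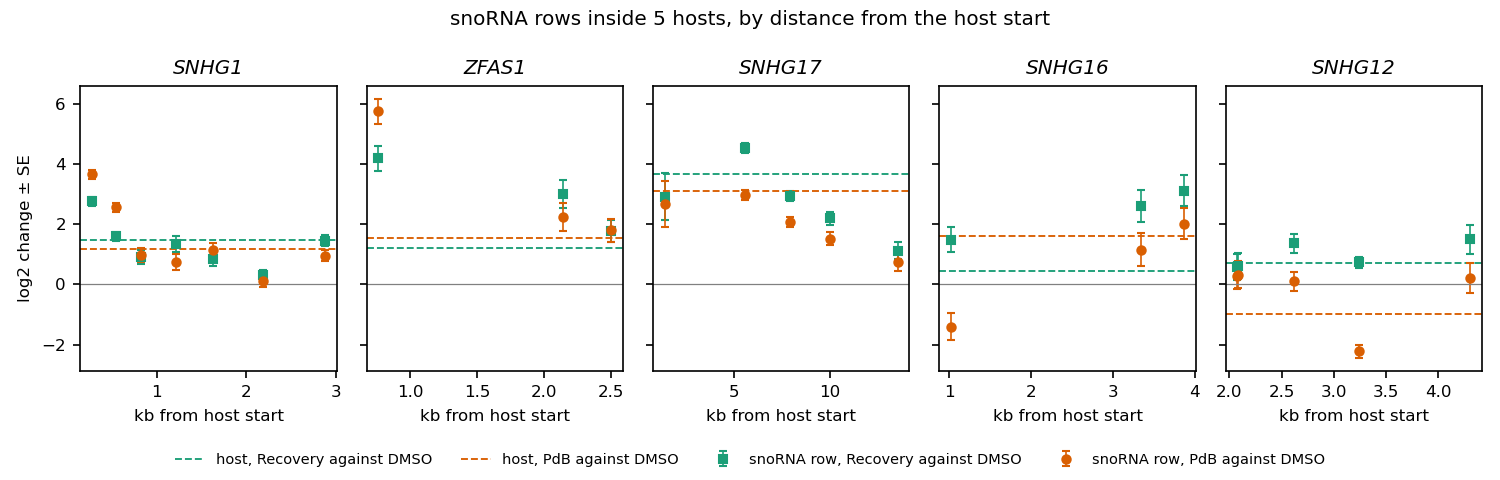
Log2 change ± SE of snoRNA rows (y axis) by distance from the outer GENCODE edge of 5 hosts (x axis, kb). Recovery (squares) and PdB (circles) are each against DMSO, and dashed lines give the host's own change. In SNHG1 the rows at 282 and 548 bp lie above the host in PdB, and in SNHG12 the row of SNORA61 lies below it at -2.23.

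Several hosts lie against other genes, and whether counting used the strand is not given in the sources used here, so reads of overlapping genes cannot be told apart. ZFAS1 shares 249 bp of exons, 11.1% of its own, with ZNFX1 on the other strand. ZNFX1 had 227, 223 and 234 CPM in recovery, 74.9, 82.2 and 89.7 CPM in PdB and 116, 112 and 116 CPM in DMSO libraries. It fell in PdB against DMSO (log2 change -0.48 ± 0.058, adjusted p = 5.8e-07), where ZFAS1 rose. SLC3A2, an amino acid transporter subunit whose start lies 188 bp from that of SNHG1, had 458, 452 and 414 CPM in recovery, 425, 424 and 406 CPM in PdB and 186, 218 and 210.1 CPM in DMSO libraries. It rose by 1.11 ± 0.058 in recovery and by 1.03 ± 0.058 in PdB on the log2 scale (adjusted p = 1.1e-11 in both). The rise in recovery was smaller than the 1.49 ± 0.065 of SNHG1, and between recovery and PdB the difference of SLC3A2 was 0.08 ± 0.057 (adjusted p = 0.24). ENSG00000284526, which shares 30.6% of the SNHG16 exons, rose by 0.95 ± 0.17 in PdB against DMSO on the log2 scale (adjusted p = 8.4e-05) and averaged 4.90 CPM in recovery, 8.97 CPM in PdB and 4.66 CPM in DMSO libraries. Others overlap a host by little or lie at low levels: TRNAU1AP beside SNHG12 fell in PdB against DMSO (-0.76 ± 0.12, adjusted p = 2.6e-05), ZBTB37 beside GAS5 rose in recovery against DMSO (0.67 ± 0.14, adjusted p = 0.00056), and GAS5-AS1, MCMDC2 and ENSG00000267546 passed no test.

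Likeness between profiles was measured as the Euclidean distance between log2 CPM values centred and scaled over the 9 libraries, where 0 means the same profile. SNHG1 and SNHG17 were nearest to each other at 0.19, and SNHG15 and ZFAS1 at 0.30. SNHG5 was nearest to ZFAS1 (0.54), GAS5 to SNHG6 (0.83), SNHG6 to SNHG1 (0.76) and SNHG16 to SNHG15 (1.42). SNHG12 and SNHG8 stood apart, since their nearest hosts lay at 3.11 and 3.17. Outside the hosts, RTRAF (0.94), SPANXB1 (0.95), RAB1A (0.97), TVP23B (0.98) and PSMD7 (0.99) lay closest to the mean host profile. All of these rose in both groups against DMSO, SPANXB1 by 1.28 ± 0.077 in recovery and 1.13 ± 0.077 in PdB and RTRAF by 0.36 ± 0.048 in recovery and 0.31 ± 0.048 in PdB on the log2 scale. They were chosen for this pattern, so no test is attached to the likeness.

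Other non-coding snoRNA hosts also rose more often than they fell. Of 20 such genes, 11 rose and 5 fell in PdB against DMSO (median log2 change 0.40), 11 rose and 1 fell in recovery against DMSO (0.73), and 9 rose and 5 fell in recovery against PdB (0.20). Of all genes, 32.0%, 30.7% and 34.6% rose in these comparisons, in the same order, and 38.2%, 30.5% and 31.5% fell. SNHG10 averaged 22.9 ± 3.0 CPM in recovery, 38.5 ± 4.1 CPM in PdB and 6.29 ± 0.91 CPM in DMSO libraries (SD, n = 3 each), so it peaked in PdB as SNHG15 did. SNHG20 averaged 26.4 ± 1.6 CPM in recovery, 10.4 ± 0.69 CPM in PdB and 6.18 ± 0.84 CPM in DMSO libraries. SNHG4 and SNHG7 were low in PdB and above DMSO in recovery, like SNHG12. SNHG4 averaged 53.4 ± 3.0 CPM in recovery, 10.9 ± 0.61 CPM in PdB and 25.6 ± 2.3 CPM in DMSO libraries, with a log2 change of 2.30 ± 0.085 for recovery against PdB (adjusted p = 5.9e-14). SNHG28 fell in both groups against DMSO, by a log2 change of -2.06 ± 0.54 in recovery (adjusted p = 0.0027) and -3.15 ± 0.59 in PdB (adjusted p = 0.0001), at 1.71 CPM in DMSO.

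Most protein-coding genes that carry snoRNAs rose in PdB and were lower again in recovery. Of 30, 26 rose and 4 fell in PdB against DMSO (median log2 change 0.58). In recovery against DMSO 14 rose and 7 fell (0.01), and in recovery against PdB 4 rose and 25 fell (-0.49). Shares over all genes, in the same order, were 32.0%, 30.7% and 34.6% for rises and 38.2%, 30.5% and 31.5% for falls. TAF1D, a subunit of the RNA polymerase I selectivity factor, averaged 190.1 ± 2.0 CPM in recovery, 462 ± 54.6 CPM in PdB and 84.7 ± 8.8 CPM in DMSO libraries. HSPA9, a mitochondrial chaperone, fell in PdB against DMSO (log2 change -0.74 ± 0.052, adjusted p = 3.6e-10) and rose in recovery against PdB (1.36 ± 0.053, adjusted p = 1.1e-13). The difference between these lists and the non-coding hosts was not tested.

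Genes of NMD, the pathway that degrades several spliced hosts, did not move one way. Of 19 NMD and exon junction factors, 5 rose and 11 fell in PdB against DMSO (median log2 change -0.29). In recovery against DMSO 8 rose and 6 fell (0.10), and in recovery against PdB 10 rose and 5 fell (0.40). Beside these stand 32.0%, 30.7% and 34.6% of all genes that rose, in the same order, and 38.2%, 30.5% and 31.5% that fell. SMG6, the endonuclease that cuts NMD targets, averaged 28.3 ± 0.42 CPM in recovery, 15.6 ± 2.5 CPM in PdB and 75.1 ± 4.0 CPM in DMSO libraries. SMG8, a regulator of the SMG1 kinase, rose by 2.22 ± 0.058 in PdB against DMSO on the log2 scale (adjusted p = 4.6e-16). Of 6 mRNAs known as NMD targets, 6 rose in PdB against DMSO, and 5 rose and 1 fell in recovery against DMSO. Over all genes, 32.0% and 30.7% rose in these 2 comparisons. TBL2, the 1 that fell, changed by -0.82 ± 0.057 in recovery and by only 0.20 ± 0.056 in PdB, both against DMSO on the log2 scale. Among the 6 mRNAs, GADD45B averaged 116 ± 1.5 CPM in recovery, 419 ± 41.9 CPM in PdB and 45.1 ± 2.9 CPM in DMSO libraries. ATF3 averaged 47.3 ± 0.85 CPM in recovery, 27.6 ± 0.70 CPM in PdB and 6.35 ± 0.73 CPM in DMSO libraries. Both are also stress-induced genes, and the part of NMD in the levels of the snoRNA hosts was not tested.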

How the data were processed

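RNA of 9 libraries was measured as gene counts, and the authors deposited 1 table of raw counts per gene for 60708 Ensembl genes. The submitters' processing notes name STAR 2.7.9a and featureCounts 2.0.3 for hg38, with fastp 0.23.2, DESeq2 1.30.0 and Picard. No label or header says which annotation was used, whether counting was stranded or how reads over 2 genes were handled. Libraries held 56389689 to 67047079 counts, so low rows such as snoRNA genes are less precise, and a count interval would cover counting error only.

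Counts were tested with edgeR 4.0.16 (R 4.3.3): TMM scaling, filterByExpr, 1 fit of 9 libraries with a coefficient per group, quasi-likelihood F tests (two-sided) and Benjamini-Hochberg adjustment over 20812 genes at 0.05. Each SE printed was derived as the absolute log2 change divided by the square root of the F statistic, and is not an edgeR output. The fit was tested on simulated data with 200 changed genes. Groups came from the labels. Symbols were matched for 60463 identifiers, and 58396 were found in GENCODE 29, which gave positions, exon lengths and the 27 snoRNA genes inside hosts on the same strand. Start sequences came from RefSeq (GRCh38.p14).

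The 10 hosts and the related lists were chosen with earlier results of these data known. Named genes were the hosts, snoRNA rows inside them with a mean of at least 10 counts, genes overlapping a host or starting within 1000 bp, up to 2 genes per list, direction and comparison with the largest called change and a mean of at least 50 counts (examples of these are given), and the 5 genes nearest the mean host profile (prior count 2). The course "further from DMSO" was added after the values were seen. The alternatives tried were scaling by library totals, RLE or upper quartiles, DESeq2 1.42.0, no filter or one of 50 counts on average, a false discovery rate of 0.01, the 6 libraries compared alone, a replicate block and each library left out. Replicates of a group differed beyond sampling noise (chi-square per degree of freedom 4.87 to 24.1).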

Additional observations from a re-analysis of the deposited data

How the results depend on the processing

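Of 540 log2 changes of hosts under alternative settings, 519 kept their direction and their side of the threshold, 17 lost the call, 3 gained it and 1 reversed. SNHG5 in recovery against PdB was 0.14 with library totals (adjusted p = 0.12), against -0.13 with TMM, and was called lower with upper-quartile factors (-0.20) and with a mean of at least 50 counts (-0.21). Hosts called lower in PdB against DMSO numbered 1 instead of 2 with RLE factors, upper-quartile factors, a mean of at least 50 counts, the 6 libraries alone, DESeq2 and a false discovery rate of 0.01, and 1 to 2 with each library left out, because SNHG8 lost its call. SNHG6 in recovery against PdB lost its call in 8 settings (log2 change 0.17 to 0.25). SNHG8 gained one there with library totals (0.35, adjusted p = 0.0017). With the longest transcript as length, 6 hosts changed rank in recovery, 5 in PdB and 8 in DMSO, and with the other scalings 0 did. A replicate block moved host log2 changes by at most 0.03 and changed no call of a host; over all genes the deviations of same-numbered libraries had correlations of -0.00323 to 0.048, so the numbers were not taken as pairs, although among the 10 hosts replicate 2 was the highest library in 10 for recovery, 10 for PdB and 8 for DMSO. Hosted snoRNA rows called lower in PdB against DMSO numbered 1 instead of 3 with the 6 libraries alone or a false discovery rate of 0.01. Depth limits the snoRNA rows, some of which held under 20 counts per library.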

Other observations

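Genes of the snoRNP machinery were not described above. Of 18 core snoRNP proteins and assembly factors, 13 rose and 4 fell in recovery against DMSO (median log2 change 0.42). In PdB against DMSO 9 rose and 6 fell (0.12). Over all genes, 30.7% rose and 30.5% fell in recovery against DMSO, and 32.0% rose and 38.2% fell in PdB against DMSO. GAR1, a core H/ACA protein, rose by 1.42 ± 0.083 in PdB against DMSO on the log2 scale (adjusted p = 2.1e-11). RUVBL2, an ATPase of the assembly complex, averaged 97.7 ± 3.9 CPM in recovery, 208 ± 3.4 CPM in PdB and 253 ± 10.7 CPM in DMSO libraries (SD, n = 3 each), and its partner RUVBL1 also fell in recovery against DMSO (log2 change -1.34 ± 0.060, adjusted p = 1.7e-12).

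Protein-coding genes known for a 5′ pyrimidine tract mostly rose in PdB and fell in recovery against PdB, as SNHG15, SNHG16 and ZFAS1 did, while SNHG17, SNHG1, SNHG6 and GAS5 rose in both. Of 82 ribosomal protein genes tested, 80 rose and 1 fell in PdB against DMSO (median log2 change 0.72). In recovery against PdB 0 rose and 77 fell (-0.61; DESeq2 called 0 higher and library totals 4). In recovery against DMSO 44 rose and 13 fell, and 20 fell without DMSO replicate 1. Of 17 translation factor genes of this kind, 12 rose and 3 fell in PdB against DMSO, and 2 rose and 12 fell in recovery against PdB, where library totals called 6 higher. Their difference from the hosts was not tested. Over all genes, 32.0% rose and 38.2% fell in PdB against DMSO, and 34.6% rose and 31.5% fell in recovery against PdB. In recovery against DMSO 30.7% of all genes rose and 30.5% fell. In GENCODE 29, 22.1% of 140 host transcripts began with at least 5 pyrimidines, beside 4.68% of 140151 transcripts of all genes tested, but 0 of 8 SNHG17 and 0 of 10 SNHG15 transcripts did.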
